A study of Mus musculus with 107 samples.

Results

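KLN205 is a mouse squamous lung carcinoma line, and the tumors it forms under the skin of DBA/2 mice were compared with and without lenvatinib (LEN). The comparison holds 6 of the 107 tumors of the series, taken by their labels: LEN replicates 1, 2 and 3 and not treated (NT) replicates 2, 3 and 4. All 6 tumors came from cells injected into the right flank of female DBA/2NCrl mice that were 7 weeks old, and mice were randomized when tumors reached about 100 mm3. LEN was given by mouth at 10 mg/kg once a day in a dilute hydrochloric acid vehicle, and the NT mice received no treatment, so that LEN and its vehicle with gavage cannot be told apart. Tumors of both groups were taken on day 8, after 7 days of dosing. A further 3 KLN205 tumors of the same flank model, taken untreated at about 100 mm3, were described beside them and entered no test. They are called treatment-naive here. Each tumor was a bulk piece with cancer cells, vessels, stroma and immune cells of the host, measured by RNA-seq after removal of ribosomal RNA. A lower value in such a sample cannot tell fewer cells of a type from less RNA per cell.

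LEN is an oral inhibitor of receptor tyrosine kinases. It acts on the VEGF receptors, on the FGF receptors, on PDGFR alpha, KIT and RET. VEGF made by tumor and stromal cells keeps endothelial cells alive and dividing through VEGFR2, FGF receptors signal in both vessels and cancer cells through the ERK cascade, and squamous carcinomas are marked by basal keratins and the transcription factor p63.

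Values are TPM, the share of each gene among all transcripts of a tumor after correction for transcript length. Fold changes are differences of the mean log2(TPM + 1), LEN minus NT, so the changes of genes at low TPM are understated. For each gene the TPM of the tumors is given in the order NT-2, NT-3 and NT-4, then LEN-1, LEN-2 and LEN-3. Genes with an adjusted p under 0.05 in limma, with Benjamini-Hochberg adjustment over all genes tested, are said to have risen or fallen.

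Squamous keratins were abundant. Mean TPM in the NT tumors was 906 for Krt5 and 448 for Krt14, the paired basal keratins, against at most 1.3 and 21.7 in the NT tumors of the other 11 models. Trp63, which encodes p63, had a mean of 17.2 TPM against at most 7.13 elsewhere. Of the markers of surface squamous layers, Ivl, Lor, Krt1 and Flg were at about 1 TPM or less. The whole list of 24 squamous differentiation genes summed to 604 to 647 TPM in NT, so other members were higher. The alveolar gene Sftpc and the lung lineage factor Nkx2-1 were at or near 0. Foxj1, a factor of ciliated cells, stood at 81.5, 95.3 and 91.6 TPM in NT and 102, 76.0 and 103 TPM in LEN. No read depth comes with TPM, so the counting error behind each value is unknown. Protein-coding genes took 50.8% to 52.7% of all TPM in NT, 55.1%, 49.3% and 44.8% in LEN-1, LEN-2 and LEN-3, and 39.6% to 42.3% in the treatment-naive tumors. Of the day 8 tumors of the other models, the tumor 4T1 LEN-4 stood apart, with 27.5% protein-coding TPM and 24.2% taken by the noncoding gene Gm26917, and counts of genes that rest on it are given with and without it. Every KLN205 tumor was most similar to another KLN205 tumor, and correlations of log2 values among the 6 compared tumors lay between 0.979 and 0.993. The labels name separate tumors, and the p-values measure the spread between them.

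Of 16702 genes tested, 38 passed (0.228%). A total of 13 rose (0.0778%) and 25 fell (0.15%), and 2259 genes had an unadjusted p under 0.05. Of the 38, 9 protein-coding genes rose and 21 fell, and in all 30 the 3 LEN values lay wholly on one side of the 3 NT values. Such separation is common with groups of this size: 2122 genes (12.7%) were lower in every LEN tumor than in every NT tumor and 1134 (6.79%) were higher. With the spread estimated over the 72 day 8 tumors of all 12 models, as an alternative, 528 of 17351 genes passed (3.04%), 101 higher (0.582%) and 427 lower (2.46%). Without 4T1 LEN-4 that spread gave 850 of 17378 (4.89%), 148 higher (0.852%) and 702 lower (4.04%). With 1 of the 6 tumors left out at a time, fits gave 7 to 37 genes past the threshold in all, the lowest number without NT-2. Of the 38 genes called with all 6 tumors, 3 (without NT-2) to 15 (without LEN-2) were among them. The median change over all tested genes was -0.04, with 6979 values above 0 and 9723 below.

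Of the 9 protein-coding genes that rose, Pigr, Muc1, Ly6d, Gabrp, Tjp3 and Mal2 are known from epithelial surfaces and junctions. Pigr (ENSMUSG00000026417, chr1:130826684-130852249), the receptor that carries IgA across mucosal epithelium, stood at 1.75, 4.02 and 2.81 TPM in NT and 11.4, 14.4 and 11.8 TPM in LEN, a change of 1.85 (SE 0.22, adjusted p = 0.0466). Muc1 (ENSMUSG00000042784, chr3:89229057-89233381), a membrane mucin of the apical surface, read 24.6, 25.01 and 25.4 TPM and then 53.3, 47.0 and 59.8 TPM (1.06, SE 0.11, adjusted p = 0.0383). Both genes were separated between the groups, Pigr from a low level and Muc1 with NT tumors that were almost alike.

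Ly6d (ENSMUSG00000034634, chr15:74762056-74763620), a GPI-anchored protein of squamous epithelia, had 97.2, 100.4 and 94.7 TPM in NT and 186, 207 and 183 TPM in LEN (0.97, SE 0.09, adjusted p = 0.0309), the lowest adjusted p among the protein-coding genes. With the spread of 72 tumors the adjusted p of Ly6d was 0.46. Gabrp (ENSMUSG00000020159, chr11:33550781-33578959), the pi subunit of the GABA-A receptor found in epithelia, had 39.7, 41.7 and 37.9 TPM and 78.99, 69.4 and 80.5 TPM (0.92, SE 0.09, adjusted p = 0.0383). Vtcn1, an inhibitory checkpoint ligand of the B7 family known as B7-H4, had 3.22, 4.9 and 4.05 TPM and 9.39, 9.55 and 10.3 TPM (1.10, SE 0.14, adjusted p = 0.0499).

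The remaining risers were Tjp3, a tight junction scaffold, with 17.5, 22.3 and 17.9 TPM in NT and 37.4, 39.9 and 35.97 TPM in LEN (0.95), and Myh14, a non-muscle myosin heavy chain, with 18.1, 18.2 and 16.3 TPM and 39.1, 30.6 and 33.7 TPM (0.93). Mal2, a protein of apical membrane transport, read 46.8, 49.8 and 45.5 TPM in NT and 79.3, 72.5 and 83.7 TPM in LEN (0.72). Tnip3, a binding partner of the NF-kappa B regulator A20, read 11.3, 12.6 and 11.6 TPM and 25.7, 19.7 and 23.6 TPM (0.90). Over all 9 risers the adjusted p lay between 0.0309 and 0.0499. In the treatment-naive tumors Muc1 read 22.3, 27.3 and 22.99 TPM, Gabrp 38.2, 24.5 and 25.7 TPM, Mal2 31.9, 31.3 and 30.5 TPM and Ly6d 129, 46.1 and 63.9 TPM. Of these, the 3 treatment-naive values of Muc1, Gabrp and Mal2 all lay below the LEN values, and those of Ly6d reached 129 TPM, above its NT values.

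All 9 risers had a higher NT mean in KLN205 than in any of the other 11 models. That held for 1647 of the 12705 protein-coding genes tested (13%) and for 3 of the 21 fallers (14.3%). Gabrp averaged 39.8 TPM in KLN205 NT tumors and at most 0.12 TPM in those of another model. For Ly6d the same values were 97.4 and 6.49 TPM, and for Muc1 25.02 and 7.2 TPM.

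**Figure D1:**
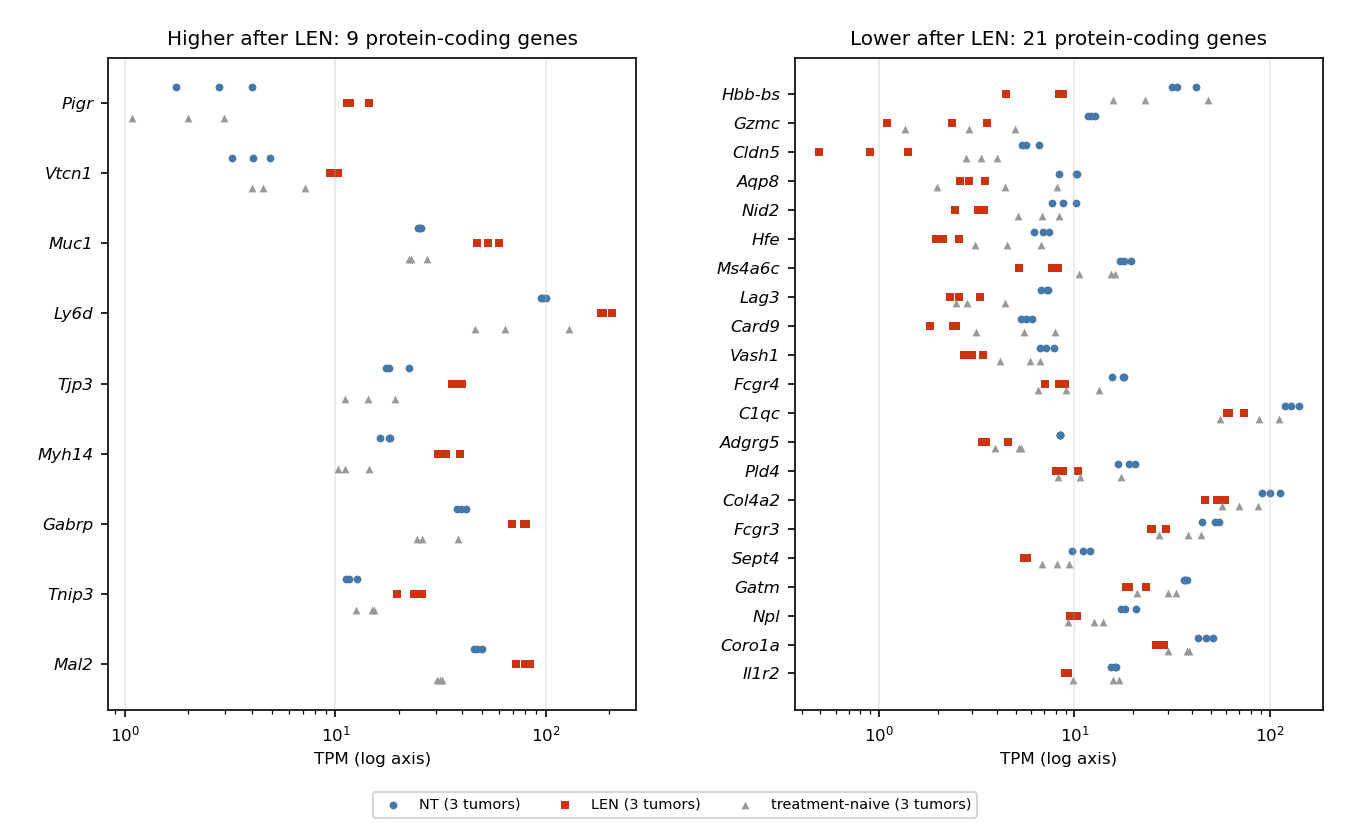
TPM on a log axis for the 9 protein-coding genes that rose and the 21 that fell, with 1 point per tumor for NT, LEN and treatment-naive KLN205 tumors. The LEN points stand apart from the NT points in every row, for example 11.4 to 14.4 against 1.75 to 4.02 TPM for Pigr and 0.49 to 1.40 against 5.39 to 6.57 TPM for Cldn5, while treatment-naive points fall on either side.

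A further 3 genes that did not pass are named after their values were seen. Vnn1, a pantetheinase, had 1.6, 2.4 and 1.5 TPM in NT and 7.37, 4.51 and 5.91 TPM in LEN (1.28, adjusted p = 0.0794). Cxcl17, a chemokine of mucosal epithelia, had 5.51, 7.4 and 4.77 TPM and 11.9, 14.7 and 16.4 TPM (1.16, adjusted p = 0.0677). Scgb1a1, the secretoglobin of airway club cells, had 8.95, 10.4 and 2.8 TPM and 19.6, 14.4 and 26.6 TPM (1.45, adjusted p = 0.206). The NT tumors differed widely from each other in Scgb1a1, and its groups did not overlap.

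Promoters are shown for the 2 risers and 2 fallers with the smallest p among those with a RefSeq entry, chosen after their values were seen, so that the sequences upstream of genes that moved in opposite directions can be read side by side. Each is the 250 bases before the RefSeq gene start, 5′ to 3′ on the gene's strand, build GRCm38.p6. They are Muc1 (chr3:89228806-89229055, plus strand), Gabrp (chr11:33578958-33579207, minus strand), Aqp8 (chr7:123462044-123462293, plus strand) and Hfe (chr13:23710855-23711104, minus strand). Capitals mark motif matches, in Muc1 the Grainyhead-like motif AACCNGTT read on the opposite strand and in Hfe the AP-1 motif TGANTCA. Hfe has a further match, of the ETS family core searched below, that does not lie wholly within the printed bases.
Muc1: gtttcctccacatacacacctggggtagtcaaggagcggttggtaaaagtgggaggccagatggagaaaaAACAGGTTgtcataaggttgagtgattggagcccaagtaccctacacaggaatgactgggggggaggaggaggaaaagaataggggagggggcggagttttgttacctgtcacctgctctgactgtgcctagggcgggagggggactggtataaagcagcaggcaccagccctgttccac
Gabrp: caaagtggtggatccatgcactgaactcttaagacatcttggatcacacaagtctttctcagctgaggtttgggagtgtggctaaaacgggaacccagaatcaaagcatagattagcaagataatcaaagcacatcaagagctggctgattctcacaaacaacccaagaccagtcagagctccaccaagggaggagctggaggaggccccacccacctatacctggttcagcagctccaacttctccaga
Aqp8: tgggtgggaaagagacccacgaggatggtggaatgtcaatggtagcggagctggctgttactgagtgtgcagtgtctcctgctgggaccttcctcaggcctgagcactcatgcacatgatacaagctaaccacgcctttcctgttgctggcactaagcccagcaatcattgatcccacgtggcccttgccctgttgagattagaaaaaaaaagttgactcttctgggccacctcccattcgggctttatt
Hfe: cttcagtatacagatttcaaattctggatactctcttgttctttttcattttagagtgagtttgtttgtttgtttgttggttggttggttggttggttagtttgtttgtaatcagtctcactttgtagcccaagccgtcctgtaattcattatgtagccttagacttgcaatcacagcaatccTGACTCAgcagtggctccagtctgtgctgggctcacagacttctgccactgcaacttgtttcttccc

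Motifs were searched on both strands in windows of 300 bases, the 250 before and the first 50 after the gene start, for the 7 risers and 18 fallers with an entry. The ETS family core GGAAGT, bound by factors of endothelial and myeloid genes, was found in 11 of the 18 fallers (61.1%), in 2 of the 7 risers (28.6%) and in 4145 of 16225 windows in all (25.5%). The fallers with a match were Adgrg5, C1qc, Card9, Fcgr4, Gatm, Gzmc, Hfe, Il1r2, Ms4a6c, Pld4 and Vash1. Those without a match were Aqp8, Cldn5, Col4a2, Coro1a, Fcgr3, Hbb-bs and Npl, so vessel and leukocyte genes stood on both sides. The risers with a match were Tjp3 and Tnip3. TGANTCA was found in 1 of 7 risers, in 2 of 18 fallers and in 6.95% of all windows, and AACCNGTT in 1, in 1 and in 1.95%. These are matches of letters only, with no binding measured.

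Vessel genes stood among the largest falls. Cldn5 (ENSMUSG00000041378, chr16:18776847-18778262), the tight junction claudin of endothelium, read 5.67, 5.39 and 6.57 TPM in NT and 0.49, 1.4 and 0.9 TPM in LEN, a change of -1.86 (SE 0.20, adjusted p = 0.0443). All 3 LEN tumors were below the treatment-naive tumors as well, which had 2.79, 4.03 and 3.33 TPM. Nid2, a nidogen that links the networks of the basement membrane, had 8.71, 7.67 and 10.1 TPM in NT and 3.19, 3.45 and 2.43 TPM in LEN (-1.29, SE 0.15, adjusted p = 0.0466). Col4a2, a chain of the type IV collagen of that membrane, had 101, 91.6 and 112 TPM and 53.6, 58.9 and 46.9 TPM (-0.92, SE 0.12, adjusted p = 0.0469). Vash1, vasohibin, an inhibitor of angiogenesis that endothelial cells make in response to VEGF, had 7.16, 6.63 and 7.86 TPM and 3.41, 2.72 and 2.99 TPM (-1.03, SE 0.13, adjusted p = 0.0466). All of these were lower in each LEN tumor than in any NT tumor.

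Of the 33 endothelial marker genes, 30 reached the TPM minimum and 1 fell, Cldn5. The median change of the 30 was -0.74 against -0.04 for all genes tested, 29 of the 30 changes were below 0, and 24 had groups that did not overlap with LEN lower, which held for 12.7% of all genes. With the spread of 72 tumors 18 of the 30 passed (21 of 29 without 4T1 LEN-4), all lower, against 2.46% of all genes (4.04%). Their summed TPM ran from 266 to 359 in NT and from 151 to 216 in LEN. Cdh5, VE-cadherin, had 16.1, 16.3 and 21.7 TPM in NT and 6.82, 9.27 and 5.7 TPM in LEN (-1.21, adjusted p = 0.0718). Pecam1, which encodes CD31, read 20.8, 19.2 and 27.8 TPM and 14.7, 14.1 and 10.4 TPM (-0.75, adjusted p = 0.137). Gpihbp1, the capillary anchor of lipoprotein lipase and picked here after its values were seen, read 11.3, 9.1 and 13.9 TPM and 1.04, 4.09 and 1.83 TPM (-1.99, adjusted p = 0.0845).

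The study's microvessel density (MVD) gene score is built on 6 genes, and here their mean log2(TPM + 1) was taken per tumor. It was 3.30, 3.13 and 3.61 in NT (3.35 ± 0.25, SD, n = 3) and 2.88, 2.86 and 2.54 in LEN (2.76 ± 0.19, SD, n = 3). The 3 LEN tumors lay below the 3 NT tumors, and the difference was -0.59. In the treatment-naive tumors the mean was 2.98 ± 0.36 (SD, n = 3), with values of 2.69, 3.38 and 2.88 that overlapped both groups. The score's difference is given as a description, with no test, and an exact two-sided permutation test of 3 tumors against 3 could not give a p below 0.1. None of the 6 genes passed on its own. With the spread of 72 tumors 3 of the 5 tested did (4 of 5 without 4T1 LEN-4), all lower, against 2.46% of all genes (4.04%).

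Values varied among the members of the score. Eng, the TGF-beta co-receptor endoglin, had 23.6, 16.5 and 24.8 TPM in NT and 13.4, 13.02 and 10.7 TPM in LEN (-0.74, adjusted p = 0.128). Pcdh12, a vascular protocadherin, had 2.43, 2.41 and 3.45 TPM and 1.01, 1.73 and 0.77 TPM (-0.81, adjusted p = 0.19). Tek, the angiopoietin receptor TIE2, had 1.66, 1.12 and 2.55 TPM and 1.26, 0.93 and 0.8 TPM (-0.45, adjusted p = 0.487), with groups that overlapped. Sparcl1, a matricellular protein of the vessel wall, read 38.9, 36.2 and 47.3 TPM in NT and 65.8, 40.97 and 42.8 TPM in LEN (0.26, adjusted p = 0.638), the only member of the score with a change above 0. Mmrn2, a partner of CD93 in the endothelial matrix and chosen after its values were seen, stood at 48.8, 50.7 and 49.4 TPM in NT and 64.9, 51.8 and 43.1 TPM in LEN (0.08). Its NT mean was 49.6 TPM in KLN205 and 1.88 to 4.97 TPM in the other models.

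The list of LEN receptors held 11 genes, those of the kinases named above and Pdgfrb, which encodes PDGFR beta. None of the 9 tested passed, with a median of -0.36. Kdr, which encodes VEGFR2, had 5.0, 4.44 and 6.47 TPM in NT and 3.72, 3.52 and 2.5 TPM in LEN (-0.57, adjusted p = 0.242). Flt1, VEGFR1, had 11.1, 9.84 and 11.4 TPM and 8.28, 8.66 and 9.29 TPM (-0.27, adjusted p = 0.32). Flt4, VEGFR3 of lymphatic and sprouting endothelium, had 2.44, 2.3 and 3.16 TPM and 1.29, 1.04 and 1.23 TPM (-0.73, adjusted p = 0.136, and 0.00128 with the spread of 72 tumors). Each VEGF receptor was lower in every LEN tumor than in every NT tumor, which held for 12.7% of all genes. None of them passed in the 6 tumors. The groups of Flt1 lay close, with 9.29 TPM as the highest LEN value and 9.84 TPM as the lowest NT value.

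Fgfr1 had the highest TPM of the 4 FGF receptors, with 34.98, 38.9 and 42.1 TPM in NT and 28.3, 23.2 and 25.1 TPM in LEN (-0.58, adjusted p = 0.101). The log2 fold change was -0.09 for Fgfr2, 0.06 for Fgfr3, -0.54 for Pdgfra, -0.36 for Pdgfrb and -0.24 for Kit, none of which passed, and Fgfr4 and Ret stayed under the TPM minimum. Of the 13 genes that report on FGF and ERK signaling 0 passed, with a median of -0.05. Dusp6, an ERK phosphatase, had 216, 234 and 195 TPM in NT and 218, 223 and 154 TPM in LEN (-0.13), and its groups overlapped. Etv5, an ERK-induced ETS factor picked after its values were seen, had 9.43, 9.12 and 11.3 TPM and 5.67, 5.47 and 5.53 TPM (-0.73, adjusted p = 0.0718).

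Among the ligands, Vegfa, the main angiogenic factor, was higher in each LEN tumor, with 123, 136 and 117 TPM in NT and 213, 154 and 173 TPM in LEN (0.51, SE 0.13, adjusted p = 0.174), and did not pass. The fold changes on the log2 scale were -0.17 for Vegfb, -0.37 for Vegfc, -0.25 for Vegfd and -0.07 for Pgf, the placental growth factor, and none passed. Of the 31 genes of hypoxia and glycolysis 0 passed and 22 had a change above 0, with a median of 0.12 that was 0.0051 without LEN-1. Ldha, lactate dehydrogenase A, read 496, 513 and 499 TPM and 568, 554 and 434 TPM, and Aldoa, aldolase A, read 566, 598 and 563 TPM and 800.2, 673 and 617 TPM. Aldoa was separated between the groups and Ldha was not.

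Pericyte and smooth muscle markers gave 0 calls among 13 tested, 10 of them with a change below 0, and a median of -0.43. Groups did not overlap in 6 with LEN lower (12.7% of all genes) and in 1 with LEN higher (6.79%). With the spread of 72 tumors 4 of 14 passed (4 without 4T1 LEN-4), all lower, against 2.46% of all genes (4.04%). Rgs5, a pericyte regulator of G protein signaling, had 19.4, 19.3 and 23.2 TPM in NT and 12.4, 11.9 and 8.63 TPM in LEN (-0.86, adjusted p = 0.0897), and Notch3, a receptor of mural cells, had 12.4, 12.9 and 13.9 TPM and 16.5, 15.98 and 14.5 TPM (0.25). Both were chosen after their values were seen and they lay on opposite sides of 0 with groups that did not overlap. Acta2, smooth muscle actin, read 134, 95.1 and 139.6 TPM and 113, 54.3 and 90.4 TPM with overlap. Of the 11 basement membrane genes, 2 fell, Nid2 and Col4a2, and Col4a1, the partner chain of Col4a2, read 168, 151 and 205 TPM and 112, 94.2 and 86.8 TPM (-0.83, adjusted p = 0.0886). Lama5, a laminin chain made by epithelium too, read 126, 126 and 129 TPM in NT and 167, 134 and 132 TPM in LEN (0.17).

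**Figure D2:**
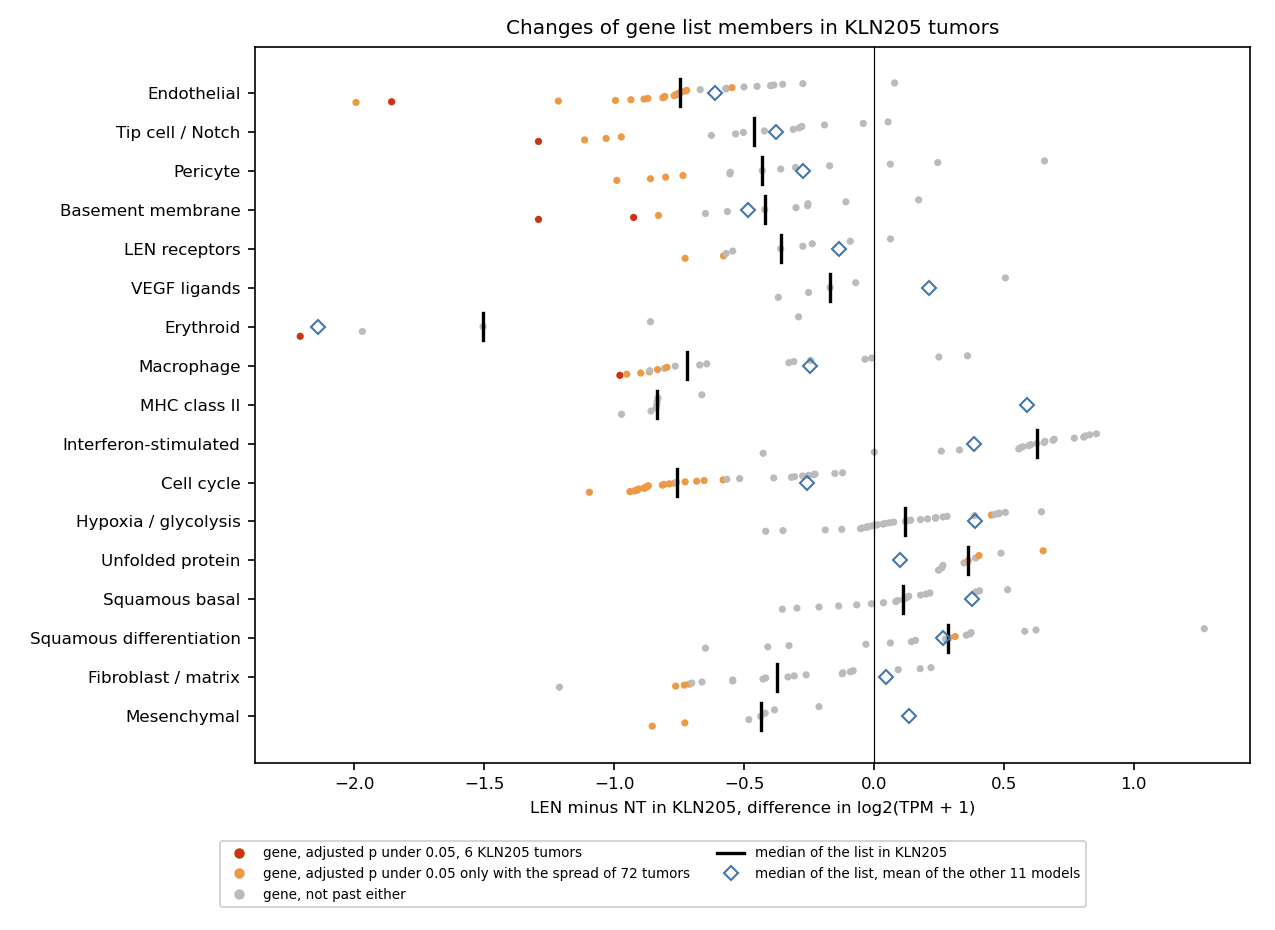
Change of each tested member of 17 gene lists, LEN minus NT on the log2(TPM + 1) scale, with 1 point per gene. Red points passed in the 6 tumors, orange points only with the spread of 72 tumors and grey points in neither. The black bar is the KLN205 median and the blue diamond the median of the same list in the other 11 models. The endothelial, cell cycle, macrophage and MHC class II medians lie between -0.84 and -0.72, and the interferon-stimulated median lies at 0.63.

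Red cell genes were also lower. Hbb-bs, an adult beta globin of red cells, fell from 31.7, 33.7 and 42.1 TPM in NT to 8.37, 8.7 and 4.45 TPM in LEN (-2.21, SE 0.23, adjusted p = 0.0383), the largest fall of a protein-coding gene. Hba-a1, an alpha globin, had 46.4, 43.2 and 63.9 TPM and 17.5, 16.3 and 6.07 TPM (-1.97, adjusted p = 0.0947). Reads of near-identical globin copies can be split between them, so each copy's value is uncertain. The summed TPM of the 5 red cell genes ran from 88.6 to 126 in NT and from 17.2 to 36.96 in LEN. Other markers of surrounding tissue did not separate the groups: skeletal muscle genes summed to 38.1 to 100.2 TPM in NT and 36.6 to 108 TPM in LEN, with 0 of 10 passing, and fat cell genes to 5.38 to 19.9 and 7.57 to 9.47 TPM, with 0 of 3. The part of blood and adjacent tissue in the other results was not tested.

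Several fallers are genes of macrophages. C1qc, a chain of complement C1q made by tissue macrophages, fell from 119, 128 and 141 TPM in NT to 73.8, 60.7 and 61.8 TPM in LEN (-0.98, SE 0.11, adjusted p = 0.0466). Its partner chains C1qa (-0.83, adjusted p = 0.0506) and C1qb (-0.90, adjusted p = 0.0645) did not pass and were named after their values were seen. Fcgr3, an activating Fc receptor for IgG on myeloid and NK cells, read 44.95, 54.7 and 52.8 TPM and 29.4, 24.6 and 25.01 TPM (-0.92, SE 0.11, adjusted p = 0.0466). Fcgr4, a second activating Fc receptor, read 15.6, 17.9 and 17.6 TPM and 8.97, 7.1 and 8.37 TPM (-0.98, SE 0.12, adjusted p = 0.0466), and with the spread of 72 tumors its adjusted p was 0.281. Each of the called receptors was separated between the groups.

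Further fallers have known roles in leukocytes or iron handling. Ms4a6c, a membrane protein of the MS4A family in macrophages, had 17.2, 17.99 and 19.4 TPM in NT and 8.2, 5.19 and 7.71 TPM in LEN (-1.28, adjusted p = 0.0466). Card9, the adaptor of C-type lectin signaling, had 6.09, 5.34 and 5.62 TPM and 2.39, 2.48 and 1.81 TPM (-1.06, adjusted p = 0.0499). Pld4, an endolysosomal exonuclease of myeloid and dendritic cells, had 16.7, 19.02 and 20.5 TPM and 10.5, 8.07 and 8.74 TPM (-0.97, adjusted p = 0.0499). Coro1a, an actin regulator of all leukocytes, fell from 42.98, 47.4 and 51.2 TPM to 28.7, 27.4 and 26.3 TPM (-0.76, adjusted p = 0.0466). Hfe, the iron regulator of the MHC class I-like family, had 6.21, 6.91 and 7.41 TPM in NT and 2.56, 2.13 and 1.95 TPM in LEN (-1.29, SE 0.13, adjusted p = 0.0383). Il1r2, the decoy receptor for interleukin 1, had 16.3, 16.1 and 15.4 TPM and 8.97, 9.29 and 9.0 TPM (-0.75, SE 0.09, adjusted p = 0.0466), and its adjusted p with the spread of 72 tumors was 0.131.

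Of the 18 macrophage genes all were tested, 1 fell (C1qc), 16 had a change below 0 and the median was -0.72. With the spread of 72 tumors 6 of the 18 passed (8 without 4T1 LEN-4), all lower, against 2.46% of all genes (4.04%). Summed TPM ran from 2113 to 2439.9 in NT and from 1176 to 1558 in LEN. Apoe, the lipid carrier, made the largest part of that sum, with 1002, 1059 and 1160.0 TPM in NT and 671, 444 and 570.4 TPM in LEN (-0.95, adjusted p = 0.0883). Lyz2, lysozyme of phagocytes, had 235, 232 and 233 TPM and 189, 99.8 and 125 TPM (-0.81, adjusted p = 0.172). The log2 fold change of Cd68, a lysosomal marker, was -0.01.

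Neutrophil markers gave 0 calls among 16 tested, with 13 changes above 0, a median of 0.30 and summed TPM of 241 to 285 in NT and 294 to 353 in LEN. S100a9, the calprotectin chain, read 28.4, 26.9 and 19.3 TPM and 34.99, 31.1 and 45.8 TPM (0.57). Lcn2, lipocalin 2 of neutrophils and epithelia, read 15.1, 32.5 and 20.96 TPM and 83.6, 28.6 and 69.1 TPM, with overlap. Il1b, interleukin 1 beta, read 41.03, 36.9 and 39.2 TPM in NT and 34.2, 31.1 and 24.7 TPM in LEN (-0.38) and was lower in each LEN tumor.

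Gzmc, a granzyme of cytotoxic lymphocytes, showed a large fall, from 11.7, 12.1 and 12.7 TPM in NT to 2.35, 1.1 and 3.57 TPM in LEN (-2.05, SE 0.26, adjusted p = 0.0469). The treatment-naive tumors had 1.35, 4.97 and 2.89 TPM, below the NT tumors too. The neighboring genes Gzmd (35.6, 37.4 and 43.2 TPM in NT, 14.8, 7.15 and 12.5 TPM in LEN, -1.72, adjusted p = 0.0564) and Gzme (25.1, 30.1 and 30.1 TPM in NT, 15.4, 7.88 and 11.1 TPM in LEN, -1.28, adjusted p = 0.0883) did not pass and were named after their values were seen. Gzmf (1.41, 0.97 and 2.65 TPM in NT, 0.12, 0.4 and 5.9 TPM in LEN, -0.23) and Gzmg (0.83, 0.29 and 2.03 TPM in NT, 0.23, 0.37 and 3.69 TPM in LEN, 0.05), further genes of that cluster, were not lower throughout, with LEN-3 above every NT tumor in both. These granzymes are near-identical copies, so reads may be split between them. General markers of cytotoxic cells were close to absent. Cd3e, a chain of the T cell receptor complex, was at 0.65 to 1.14 TPM, Cd8a at most at 0.19, Nkg7 at most at 0.29, Prf1, perforin, at most at 0.79 and Ifng at 0 in all 6 tumors. Gzmb, granzyme B, had 0.78, 0.52 and 0.42 TPM in NT and 2.08, 0.67 and 2.36 TPM in LEN. Of 13 cytotoxic and NK genes, 3 reached the TPM minimum and 0 passed, with sums of 10.2 to 12.8 TPM in NT and 8.02 to 13.5 TPM in LEN.

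Lag3, an inhibitory receptor of T and NK cells, fell from 6.73, 7.33 and 7.23 TPM to 3.28, 2.57 and 2.3 TPM (-1.13, SE 0.14, adjusted p = 0.0466). It was the sole call among the 6 of 19 T cell genes that reached the TPM minimum, and the sums of the whole list overlapped, 27.4 to 30.3 TPM in NT and 22.9 to 30.8 TPM in LEN. Adgrg5, an adhesion G protein-coupled receptor of leukocytes, fell from 8.48, 8.44 and 8.46 TPM to 3.54, 4.59 and 3.37 TPM (-0.98, SE 0.13, adjusted p = 0.0499). The T cell markers Tcf7 (4.99, 5.02 and 4.94 TPM in NT, 6.45, 6.13 and 5.04 TPM in LEN) and Tigit (7.24, 6.92 and 5.1 TPM in NT, 6.8, 7.56 and 6.72 TPM in LEN) did not pass. The remaining protein-coding fallers were Aqp8, a water channel, with 10.2, 8.33 and 10.2 TPM in NT and 2.9, 3.5 and 2.58 TPM in LEN (-1.41, SE 0.14, adjusted p = 0.0383), Gatm of creatine synthesis with 36.6, 37.04 and 37.5 TPM in NT and 23.2, 18.5 and 19.1 TPM in LEN (-0.85), Sept4, a septin (-0.85), and Npl of sialic acid breakdown (-0.85).

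Genes of MHC class II antigen presentation were lower without passing. All 7 had changes below 0, 6 of them with groups that did not overlap, against 12.7% of all genes, and the median was -0.84 with 0 calls in either fit. Cd74, the invariant chain, stood at 287, 365 and 431 TPM in NT and 209, 246 and 147 TPM in LEN (-0.86, SE 0.22, adjusted p = 0.159). H2-Ab1, a class II beta chain, had 56.8, 72.5 and 88.05 TPM and 42.7, 50.5 and 28.6 TPM (-0.83, adjusted p = 0.193). Both NT and LEN tumors spread widely among themselves in these genes, with LEN-3 the lowest. The list of 12 MHC class I genes was divided, 6 above and 6 below 0, with a median of -0.04. B2m, the class I light chain, read 169, 159 and 194 TPM and 184, 122 and 151 TPM.

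Interferon-stimulated genes were higher in the LEN tumors without passing. Of 19, 18 had a change above 0 and 14 had groups that did not overlap with LEN higher, against 6.79% of all genes, and the median was 0.63. None passed in the 6 tumors or with the spread of 72. Irf7, a transcription factor of the interferon response, had 19.4, 22.3 and 23.4 TPM in NT and 30.6, 37.5 and 36.4 TPM in LEN (0.66, adjusted p = 0.0897). Oasl1, an antiviral member of the OAS family, had 19.1, 18.6 and 16.2 TPM and 32.3, 29.6 and 27.1 TPM (0.69, adjusted p = 0.0718). Bst2, tetherin, had 46.7, 42.3 and 43.9 TPM and 75.2, 46.7 and 82.9 TPM (0.57, adjusted p = 0.291), with LEN-2 just above the NT tumors. Genes of the interferon gamma response gave a median of 0.02 over 8 tested and 0 calls.

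Cell division genes were lower in the LEN tumors. All 31 had a change below 0, 23 had groups that did not overlap with LEN lower (12.7% of all genes), and the median was -0.76. None passed in the 6 tumors, and with the spread of 72 tumors 19 passed (21 without 4T1 LEN-4), all lower, against 2.46% of all genes (4.04%). The mean log2(TPM + 1) of the list was 4.76, 4.68 and 4.73 in NT and 4.12, 4.44 and 3.69 in LEN, with LEN-3 the lowest. Cdk1, the mitotic kinase, had 94.3, 95.1 and 80.5 TPM in NT and 52.8, 62.3 and 39.7 TPM in LEN (-0.81, adjusted p = 0.111, and 0.00637 with the spread of 72 tumors). Mki67, which encodes Ki-67, had 28.9, 27.4 and 27.01 TPM and 15.6, 20.9 and 9.8 TPM (-0.87, adjusted p = 0.183, and 0.0127). Mcm7, a subunit of the replicative helicase, read 97.96, 96.96 and 92.7 TPM and 84.4, 85.8 and 75.6 TPM (-0.23), a smaller change with groups that did not overlap, and Pcna, the sliding clamp, had -0.15. Ube2c, a ubiquitin conjugase of mitotic exit, read 90.2, 90.2 and 84.6 TPM in NT and 63.2, 66.6 and 32.2 TPM in LEN (-0.77). LEN-3 also had the lowest protein-coding share, 44.8%, and when values were rescaled over protein-coding genes alone the list median was -0.70.

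**Figure D3:**
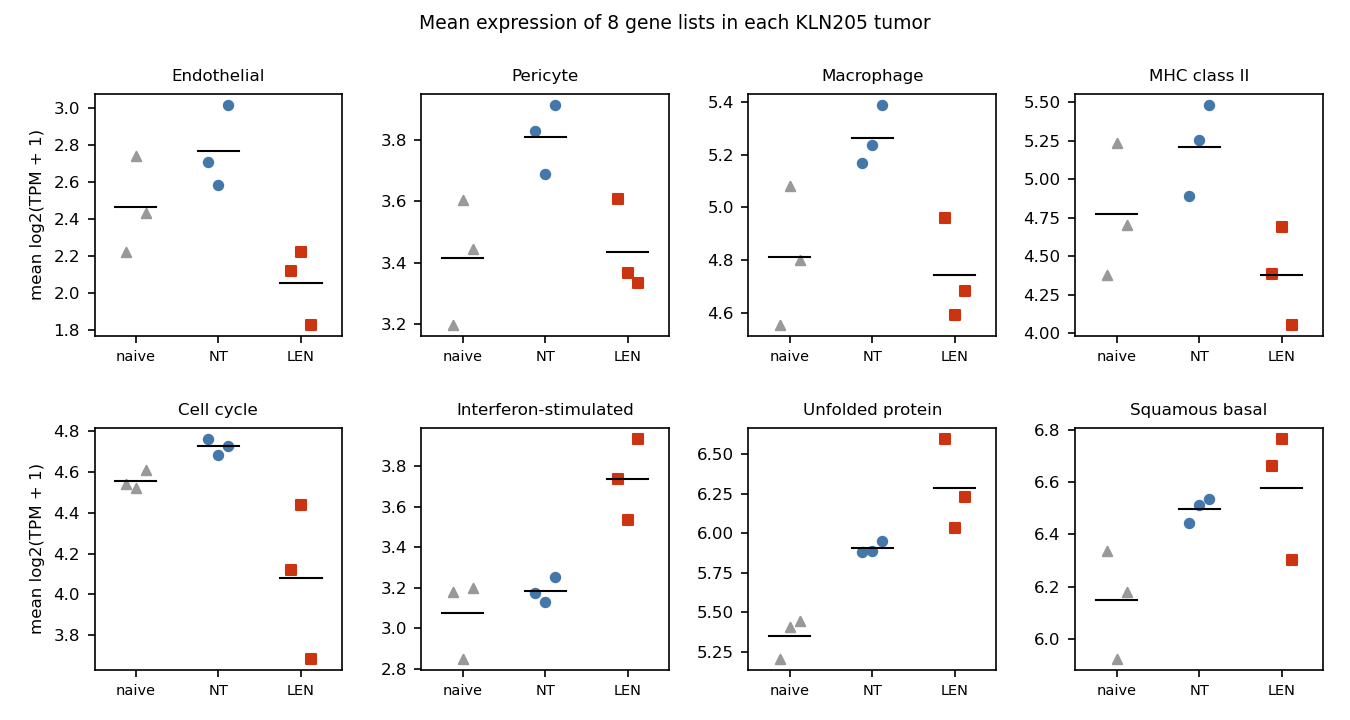
Mean log2(TPM + 1) of 8 gene lists in each treatment-naive, NT and LEN tumor of KLN205, with 1 point per tumor and a bar for the group mean. LEN points lie below NT points for the endothelial, pericyte, macrophage, MHC class II and cell cycle lists, above them for the interferon-stimulated and unfolded protein response lists, and overlap them for the squamous basal list.

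Stress genes were less uniform. The 9 genes of the unfolded protein response all had a change above 0, with a median of 0.36, 0 calls in the 6 tumors and 3 with the spread of 72 (3 without 4T1 LEN-4), all higher, against 0.582% of all genes (0.852%). Hspa5, the chaperone BiP of the endoplasmic reticulum, had 376, 378 and 409.8 TPM in NT and 660.4, 391 and 523 TPM in LEN (0.40, adjusted p = 0.4, and 0.0441 with the spread of 72). Its groups overlapped through LEN-2, and LEN-1 was the highest. The integrated stress response had 0 calls among 18 tested and a median of -0.16, and the p53 targets 0 of 10 with a median of 0.03. Respiratory chain genes encoded in the nucleus gave 0 of 19 and a median of -0.17.

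The lists of squamous basal and differentiation genes, which do not hold Ly6d, showed no call. Of 19 basal genes tested, 13 had a change above 0 and the median was 0.11. Krt5 read 954, 859 and 904 TPM in NT and 1038, 1345 and 684 TPM in LEN, a wide spread among the LEN tumors that ran across the NT values, and Krt14 read 419, 429.9 and 496 TPM and 562, 664 and 349 TPM with overlap too. Krt8, a keratin of simple epithelium, was lower in each LEN tumor, 606, 645 and 699 TPM against 546, 489 and 491 TPM (-0.35, adjusted p = 0.193). Of 16 differentiation genes tested 12 had a change above 0, with a median of 0.28 that was 0.015 without LEN-2 and 0.46 without LEN-3. Krt6a, a keratin of activated squamous epithelium, read 387, 409 and 440.4 TPM and 569.6, 876 and 513 TPM (0.62, adjusted p = 0.24).

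Of the 7 mesenchymal transition genes tested, all had a change below 0, with a median of -0.44 and 0 calls. Vim, the intermediate filament vimentin, had 419, 491 and 568 TPM in NT and 319.7, 281 and 219 TPM in LEN (-0.85, SE 0.17, adjusted p = 0.104, and 3.26e-05 with the spread of 72 tumors). Fn1, fibronectin, had 549, 550.2 and 681 TPM and 459, 246 and 398 TPM (-0.73, adjusted p = 0.241). Fibroblast and matrix genes gave 0 calls of 20, a median of -0.37 and 1 gene with groups that did not overlap (LEN lower in 12.7% of all genes, higher in 6.79%). That median was -0.19 without NT-4, -0.21 without LEN-2 and -0.72 without LEN-1. Col1a1, the main fibrillar collagen chain, read 768, 676 and 1066 TPM and 752, 425 and 402 TPM (-0.70), with LEN-1 within the range of the NT tumors. Plau, the urokinase protease, had 121, 148 and 146 TPM in NT and 98.9, 85.5 and 68.7 TPM in LEN (-0.72, adjusted p = 0.115).

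Lists not described so far gave 1 call, Nid2 among the 14 tested genes of tip cells and Notch signaling, whose median was -0.46. Dll4, a Notch ligand of sprouting endothelium chosen after its values were seen, had 3.58, 3.56 and 5.69 TPM in NT and 1.81, 2.09 and 1.13 TPM in LEN (-0.97, adjusted p = 0.13). The median was -0.29 over 6 angiopoietin genes, -0.47 over 4 vascular adhesion genes and -0.35 over 2 lymphatic genes. Over matrix proteases it was -0.11 (10 genes), over coagulation genes -0.07 (11), over EGF receptor ligands 0.12 (7) and over mitochondrially encoded genes -0.13 (13). Monocyte genes had 0.17 (6), dendritic cell genes -0.12 (8), mast cell genes 0.02 (6), B and plasma cell genes -0.29 (2) and Schwann cell genes -0.07 (2). Of these, the medians of the lymphatic, coagulation, EGF receptor ligand, mitochondrially encoded, monocyte, mast cell and Schwann cell lists changed sign under some of the alternative settings. Of the 7 lung lineage genes 2 were tested, Foxj1 and Scgb1a1, of the 6 hair follicle genes 1 was tested, Tchh at 0.36, and none of the 5 melanocyte genes reached the TPM minimum.

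A total of 8 called genes were not protein-coding, and 7 of them were listed at 0 in all 3 tumors of a group, mostly genes of short nuclear RNAs. The small nucleolar RNA gene Gm24519 was listed at 0 in NT and at 10.2, 23.8 and 50.8 TPM in LEN, and Snora30 at 0 in NT and at 22.6, 17.5 and 9.37 TPM in LEN, with 20.3, 0 and 32.02 TPM in the treatment-naive tumors. The small nuclear RNA gene Gm22265 had 19.4, 18.3 and 21.4 TPM in NT and was listed at 0 in LEN. The antisense gene Gm15987 rose from 4.19, 5.18 and 5.66 TPM to 11.7, 11.01 and 11.8 TPM (1.07, adjusted p = 0.0466). Whether the counting used strand is not given in the sources used here, so its reads cannot be told apart from those of an overlapping gene.

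The change in KLN205 was then compared with the mean change in the other 11 models, with the difference itself as the tested contrast over 72 tumors. Of 17351 genes, 224 differed (1.29%), 49 with a higher value in KLN205 (0.282%) and 175 with a lower one (1.01%). The split depended on the scaling and was 131 higher and 195 lower with protein-coding rescaling and 110 higher and 240 lower with upper-quartile scaling. The 175 lower genes became 35 without LEN-3, 43 without NT-4, 101 without NT-3, 111 without NT-2 and 61 with the replicate block, and the 49 higher genes became 21 to 31 without any one of NT-2, NT-3, NT-4, LEN-1 and LEN-3, 14 with the block and 9 with a pseudocount of 0.1. Without 4T1 LEN-4, 502 of 17378 genes differed (2.89%), 74 higher (0.426%) and 428 lower (2.46%), and all of the 224 were among them. The other 11 models had 3 tumors per group each, in mice of several strains. Of the protein-coding genes called in KLN205, 4 of the 9 risers and 8 of the 21 fallers were among those that differed, and 8 of the 9 and 20 of the 21 had been tested in these tumors. The calls and the difference rest on the same KLN205 tumors, so this overlap is no separate support. The 4 risers include Gabrp and Vtcn1, for which the p of the difference is not read below.

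Gzmc had the largest negative difference among the genes that passed, -2.05 in KLN205 and 0.58 in the other 11 (difference -2.63, SE 0.54, adjusted p = 0.00492). For Lag3 the mean of the other 11 was 0.15 (difference -1.28, adjusted p = 0.0248), and for Il1r2 it was 0.67 (difference -1.42, adjusted p = 0.00267). Spp1, osteopontin of macrophages and tumor cells, read 192, 234 and 238 TPM in NT and 146, 126 and 151 TPM in LEN of KLN205 and had a mean log2 fold change of 0.47 in the other 11 (difference -1.12, adjusted p = 0.000863). Each of these pairs of values had opposite signs, although among the other 11 models taken singly 3 had a change below 0 for Gzmc and 5 for Lag3.

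Among vessel genes, Cldn5 was lower in both and by more in KLN205 than in the mean of the other 11 (-1.02, difference -0.84, adjusted p = 0.0225), with Renca at -1.81 and BNL at -1.56 close to it. Nid2, with -1.25 elsewhere, had a difference of -0.04 (adjusted p = 0.98). Sparcl1 had -0.74 in the other 11 against 0.26 here (difference 1.00, SE 0.21, adjusted p = 0.0066), and Mmrn2 had -0.68 against 0.08 (difference 0.76, adjusted p = 0.0102). B16F10, with 0.21 in Sparcl1, was close to KLN205. Fgfr1 had 0.12 elsewhere (difference -0.70, adjusted p = 0.00524). The endothelial list as a whole had a median of -0.61 in the other 11 and -0.74 in KLN205.

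Tumor cell and stromal genes made up further differences. Igfbp3, a binding protein of insulin-like growth factors, read 341, 392 and 396 TPM in NT and 401, 418 and 359 TPM in LEN (0.06), against -1.62 in the other 11 (difference 1.68, SE 0.18, adjusted p = 1.08e-08). Of the other 11, Hepa had a change of 0.11 in Igfbp3, close to that of KLN205, and the remaining ones were below 0. The mean of the other 11 was 0.23 for Vim (difference -1.09, SE 0.14, adjusted p = 7.05e-07), 0.23 for Fn1 (difference -0.96, adjusted p = 0.0121, with RAG at -0.72 beside the -0.73 of KLN205) and 0.14 for Plau (difference -0.86, adjusted p = 0.00674). Muc1 had a difference of 0.85 (adjusted p = 0.0267). Its change was 1.06 in KLN205, 0.74 in Renca, 0.70 in BNL and 0.60 in 4T1, and of the other 11 models 7 were above 0 and 4 below. The differences of Gabrp (0.89), Vtcn1 (0.85) and Scgb1a1 (1.46) are given with no p, since these genes are near 0 in most or all of the other models, from which most of the spread is taken, and such a difference largely restates the KLN205 value. The mean of the other 11 also hides BNL, where the log2 fold change, given here with no test, was 2.23 for Vtcn1, 3.21 for Tjp3, 1.91 for Mal2, 1.90 for Myh14 and 2.87 for Tnip3, each above that of KLN205.

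**Figure D4:**
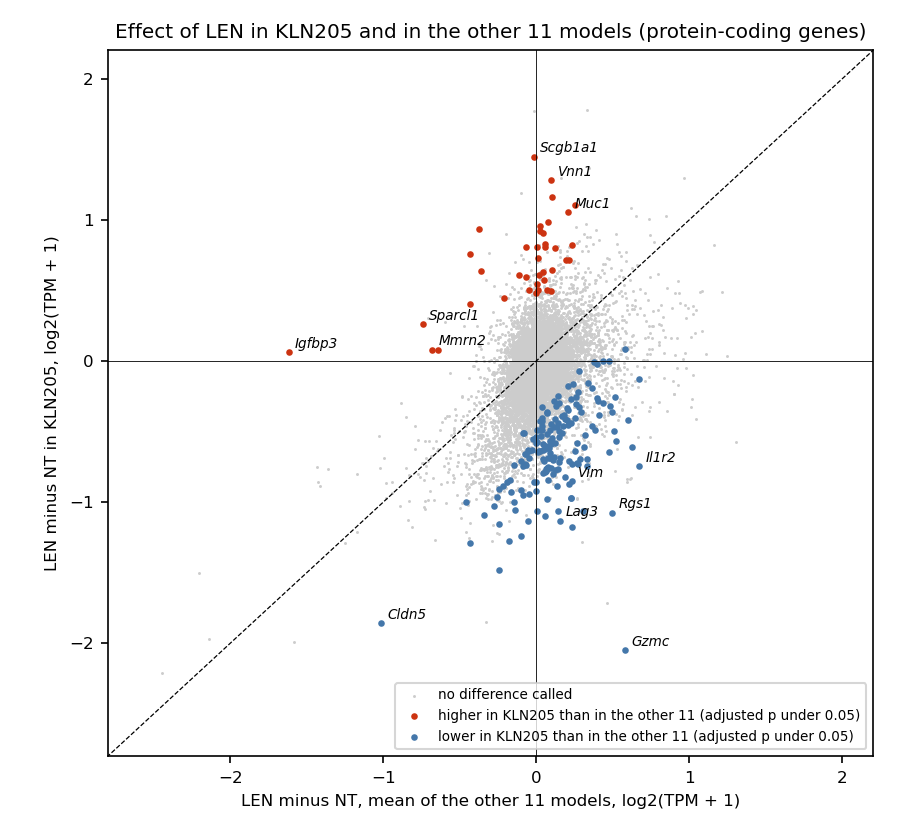
Change in KLN205 (vertical axis) against the mean change in the other 11 models (horizontal axis), LEN minus NT on the log2(TPM + 1) scale, with 1 point per protein-coding gene. Red marks 39 genes with a higher value in KLN205 and blue 168 with a lower one by the test of the difference. Igfbp3 and Scgb1a1 lie at the upper side with differences of 1.68 and 1.46, and Gzmc at the lower side with -2.63.

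By gene list, KLN205 had the lowest median of the 12 models for cell division genes, -0.76 against -0.58 to 0.18 in the other 11. Of the 31 genes 2 differed (11 without 4T1 LEN-4), all lower in KLN205, against 1.01% of all genes (2.46%). Among the 2 was Ccna2, cyclin A2, by -0.75 (adjusted p = 0.0445). KLN205 also had the lowest median for MHC class II, -0.84 against -0.62 to 2.56, where Cd74 had a difference of -1.45 that did not pass (adjusted p = 0.126). For endothelial genes all 12 medians were below 0 and KLN205 had rank 5 from the lowest, within -0.91 to -0.32. For interferon-stimulated genes it lay at 0.63 within -0.70 to 1.57, and for macrophage genes at -0.72 within -1.22 to 1.40. Without LEN-3 the KLN205 median was -0.46 for cell division, above the -0.58 of 4T1, and -0.61 for MHC class II, above the -0.62 of LL/2. Both lowest ranks were thus lost without that tumor. The cell division median of 4T1 was itself -0.28 without 4T1 LEN-4. With both tumors left out, KLN205 at -0.46 was again the lowest for cell division, next to MBT2 at -0.43. These ranks are descriptions of medians over 3 tumors a group, with no test of the lists.

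**Figure D5:**
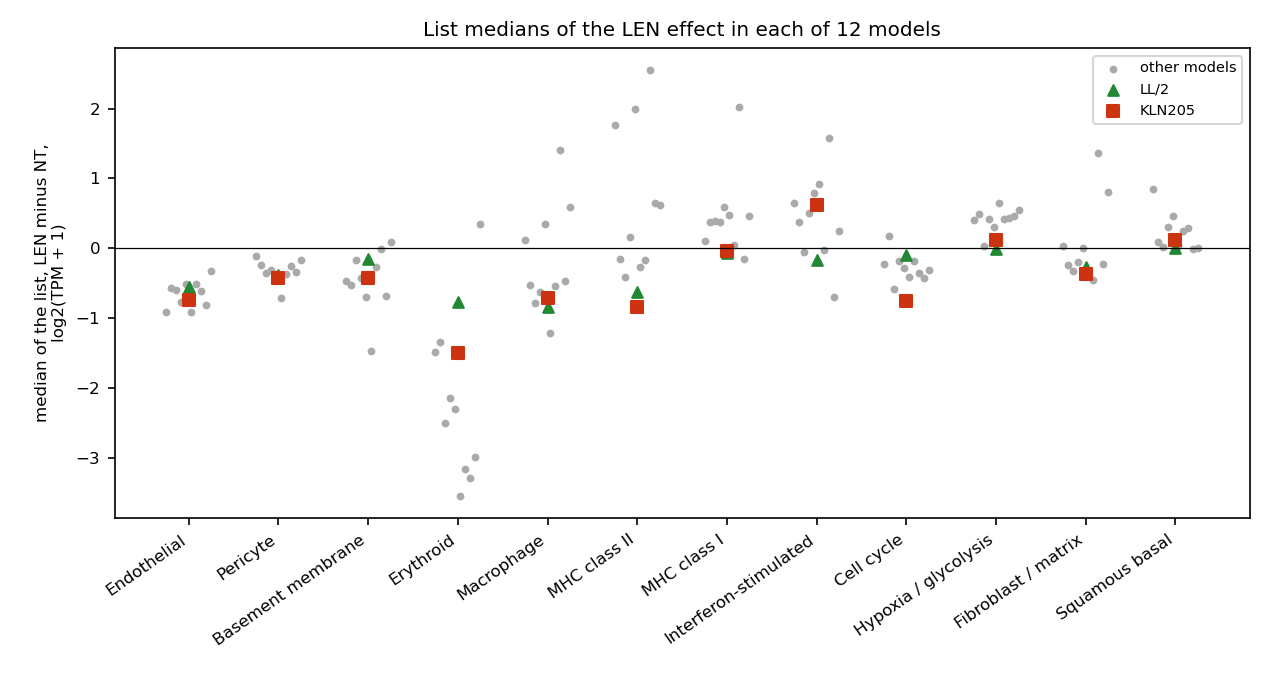
Median change of 12 gene lists in each of the 12 models, LEN minus NT on the log2(TPM + 1) scale, with 1 point per model, a red square for KLN205 and a green triangle for LL/2. The endothelial points all lie below 0, and KLN205 is the lowest point for cell cycle and MHC class II genes with all 6 of its tumors, whereas without LEN-3 its medians are -0.46 and -0.61, above 4T1 at -0.58 and LL/2 at -0.62.

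LL/2, the other lung carcinoma line of the series, gave a test within the organ of origin. In the 12 tumors of both lines 0 of 16774 genes differed in their change by limma (0.0%), with 2217 at an unadjusted p under 0.05, and in that fit LL/2 itself had 172 calls (1.03%), 45 higher (0.268%) and 127 lower (0.757%). The count of 0 depended on the scaling and was 42 higher and 60 lower in KLN205 with upper-quartile scaling and 56 higher and 30 lower with protein-coding rescaling, so it does not show that the lines respond alike. Side by side, the endothelial median was -0.74 in KLN205 and -0.56 in LL/2 over the same genes, the macrophage median -0.72 and -0.84, the MHC class II median -0.84 and -0.62, the cell division median -0.76 and -0.10, and the interferon-stimulated median 0.63 and -0.17. The log2 fold changes of C1qc were -0.98 and -1.31, and those of Igfbp3 0.06 and -1.45.

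The treatment-naive tumors, taken before the start of dosing, entered no test and are given as a reference. Their mean log2(TPM + 1) over the endothelial list was 2.22, 2.74 and 2.43, which overlapped the LEN values of 2.12, 2.22 and 1.83 and lay partly among the NT values of 2.71, 2.58 and 3.02. For cell division genes they had 4.54, 4.52 and 4.61, above every LEN tumor and below every NT tumor. For the unfolded protein response they had 5.21, 5.40 and 5.45, lower than the NT tumors at 5.88, 5.89 and 5.95 and the LEN tumors at 6.60, 6.03 and 6.23. The interferon-stimulated list had 3.18, 2.85 and 3.20 in them, 3.18, 3.13 and 3.25 in NT and 3.74, 3.54 and 3.94 in LEN, so that the LEN tumors stood above both. Protein-coding genes took 39.6% to 42.3% of TPM in the treatment-naive tumors and 50.8% to 52.7% in NT. These list values were not rescaled for that share, so the small gap between treatment-naive and NT tumors in cell division genes is not read.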

How the data were processed

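Tumors were profiled by total RNA-seq after depletion of ribosomal RNA, on Illumina NovaSeq or NextSeq sequencers (which tumor ran on which is not given in the sources used here). Per the study's methods and processing notes, the authors trimmed reads with Trimmomatic 0.36, aligned them to GRCm38 (mm10) with STAR 2.5.2b and estimated abundance with RSEM 1.2.31, and they deposited TPM values per gene, 50686 genes by 107 tumors. TPM keeps no read depth, so the counts behind a value and its counting error are unknown.

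From these values log2(TPM + 1) was fitted with limma 3.58.1 (R 4.3.3; lmFit, eBayes with trend), two-sided, over genes with a mean of at least 1 TPM in the fitted tumors, with Benjamini-Hochberg adjustment over all genes tested and a threshold of 0.05. A total of 6 KLN205 tumors entered the comparison of LEN with NT, 72 the difference from the mean of the other 11 models and 12 the difference from LL/2. The scripts were tested on simulated data. Alternatives were a pseudocount of 0.1, no TPM minimum or one of 5, upper-quartile (75%) scaling, rescaling over protein-coding genes, no trend, array weights, the spread of 72 tumors, a test of the 2 groups with unequal spread, the replicate number as a block, each tumor left out in turn and, chosen after the data were seen, the fits of 72 without 4T1 LEN-4.

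The members, the 44 gene lists and the tests were chosen with earlier results of these data known. Named genes were the 6 score genes, Pecam1, the LEN targets and the VEGF ligands; the 15 protein-coding genes that rose most and the 15 that fell most among those with groups that did not overlap; up to 6 members of each list that passed per direction, or up to 4 of the highest mean TPM where none passed; the 5 largest differences per direction from the other 11; and marker genes. Genes outside that rule, among them the remaining fallers, were chosen after their values were seen. Lists are described by counts and medians, with no set test. Gene positions and types came from the GENCODE annotation of GRCm38, which matched 50462 of the genes, and promoter sequences from RefSeq (GRCm38.p6). Figures were drawn with matplotlib 3.10.9. Some genes are not reported here.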

Additional observations from a re-analysis of the deposited data

Results flagged for a closer look

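The LEN effect in KLN205 differed from the mean of the other 11 models, by the test of the difference in limma, for 49 genes with a higher value in KLN205 and 175 with a lower one (74 and 428 without the 4T1 LEN-4 tumor, which stands apart in its share of protein-coding TPM). The largest negative differences on the log2 scale were those of Gzmc (-2.63, adjusted p = 0.00492), Rgs1, a regulator of G protein signaling in lymphocytes (-1.57, adjusted p = 0.0393), Il1r2 (-1.42, adjusted p = 0.00267), Gsta1, a glutathione transferase (-1.41, adjusted p = 0.0237), and Clec7a, the beta-glucan receptor Dectin-1 (-1.39, adjusted p = 0.0399). Rgs1 had 3.42, 6.4 and 8.49 TPM in NT and 3.12, 1.22 and 2.63 TPM in LEN, with groups that did not overlap. Gsta1 had 5.81, 3.5 and 4.87 TPM in NT and 1.03, 6.64 and 0 TPM in LEN, so that LEN-2 lay above all NT tumors, and its near-identical copy Gsta2 can share its reads. Clec7a, which the annotation lists as a polymorphic pseudogene, had 18.8, 21.1 and 24.4 TPM and 10.5, 11.2 and 13.8 TPM.

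The largest positive differences were those of the short RNA genes Gm24519 (4.75) and Gm23084 (3.35), then Igfbp3 (1.68, adjusted p = 1.08e-08), Scgb1a1 (1.46) and Gm21738 (1.31, adjusted p = 0.0115). Gm24519, Gm23084 and Scgb1a1 take most of their spread from tumors of other models, most of which have them at or near 0, so their p is not given and not read. Gm23084 was listed at 0 in NT and at 29.5, 0 and 24.9 TPM in LEN. Gm21738 had 9.63, 9.51 and 11.1 TPM in NT and 22.6, 15.01 and 24.1 TPM in LEN and belongs to a set of predicted genes of near-identical sequence. With each of the 6 KLN205 tumors left out in turn, the differences of Gzmc, Il1r2 and Igfbp3 passed every time, that of Gm21738 was lost without LEN-3 (adjusted p = 0.104), and those of Rgs1, Gsta1 and Clec7a were lost without NT-4 and also without LEN-3.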

How the results depend on the processing

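The 24 protein-coding genes named for their rise or fall were chosen with groups that did not overlap, so their direction could hardly turn and says nothing of stability. Of the 24, 24 remained past the threshold with upper-quartile scaling or array weights, 23 with a pseudocount of 0.1 or protein-coding rescaling, 20 of the 22 tested with the spread of 72 tumors, 18 of the 20 tested with a minimum of 5 TPM, 1 with no TPM minimum and 0 with no trend (adjusted p 0.0573 to 0.0896), with the 2-group test of unequal spread (1392 genes with an unadjusted p under 0.05) or with the replicate block (1571). The 13 genes that rose became 3 with no minimum, 22 with a minimum of 5 TPM, 37 with upper-quartile scaling, 36 with protein-coding rescaling, 2 with no trend, 34 with array weights, 101 with the spread of 72, 0 with the 2-group test and 0 with the block, and ran from 2 to 22 with 1 tumor left out. The 25 that fell became 2, 38, 104, 61, 3, 98, 427, 0 and 0 in the same order, and 2 to 15. The number of list members that fell, 6 as reported, was 0 with no minimum, 20 with upper-quartile scaling, 13 with rescaling, 0 with no trend, 17 with weights, 67 with the spread of 72, 0 with the 2-group test, 0 with the block and 0 to 3 with a tumor left out. List members that rose went from 0 to 1 with the minimum of 5, 2 with either rescaling, 4 with weights and 6 with the spread of 72. Without NT-2 and without NT-4 none of the 24 named genes passed, without NT-3 1, without LEN-1 2, without LEN-2 11 and without LEN-3 2. Against the other 11, the 49 higher genes became 9 with a pseudocount of 0.1, 317 with no minimum, 16 with a minimum of 5, 110 with upper-quartile scaling, 131 with rescaling, 14 with the block and 21 to 74 with a tumor left out. The 175 lower genes became 96 with the pseudocount, 407 with no minimum, 61 with the block and 35 to 428 with a tumor left out. The highest of each, 74 and 428, came without 4T1 LEN-4, an alternative chosen after seeing the data, under which the differences and the adjusted p-values of single genes given from the 72 tumors stayed on their side of the threshold. Against LL/2 the 0 higher and 0 lower genes became 1 and 1 with the pseudocount, 3 and 7 with no minimum, 11 and 13 with the minimum of 5, 42 and 60 with upper-quartile scaling, 56 and 30 with rescaling, 2 and 1 with no trend, and 0 to 18 and 0 to 8 with a tumor left out. The causes were not tested. The LEN minus NT difference of the MVD gene score lay between -0.76 and -0.46 in every setting. Replicate numbers 2 and 3 occur in both KLN205 groups, their deviations correlated at 0.031 and -0.060, and the numbers were not read as pairs. List medians kept their sign in every setting for the endothelial (-0.92 to -0.59), cell division (-0.95 to -0.46), macrophage (-0.77 to -0.61), MHC class II (-1.01 to -0.61) and interferon-stimulated genes (0.54 to 0.72), and changed sign in some for the squamous basal, MHC class I, T cell, cytotoxic and NK, monocyte, mast cell, interferon gamma, p53, ERK feedback, EGF receptor ligand, mitochondrially encoded, coagulation, lymphatic, fat cell, Schwann cell and skeletal muscle lists. Leaving out 1 tumor also moved by over 1.5 times the medians of the LEN receptor (-0.23 without NT-4), VEGF ligand (-0.08 without NT-2, -0.31 without LEN-1, -0.09 without LEN-2, -0.11 without LEN-3), tip cell (-0.27 without LEN-3), angiopoietin (-0.13 without LEN-3), vascular adhesion (-0.70 without NT-3, -0.22 without NT-4, -0.30 without LEN-3), integrated stress (-0.05 without LEN-3, -0.09 without NT-2), unfolded protein (0.22 without LEN-1), respiratory chain (-0.08 without LEN-3), matrix protease (-0.25 without NT-2, -0.01 without NT-4, -0.18 without LEN-1, -0.04 without LEN-2), dendritic cell (-0.08 without NT-4, -0.18 without LEN-1), B and plasma cell (-0.45 without NT-3, -0.07 without NT-4, -0.13 without LEN-2) and mesenchymal (-0.29 without NT-4) lists. The depth of the TPM values is unknown, which limits statements on genes near 0.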
